A study of Homo sapiens with 12 samples.

Results

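The genes described are the subunits of the integrins and the laminins: every symbol of the ITGA, ITGB, LAMA, LAMB and LAMC series in the deposited count table. They were matched by symbol, but the choice was made with earlier results of these data known. Comparisons of these genes with all tested genes are therefore not blind to the data. Of the 26485 gene symbols, 38 matched: 18 integrin alpha, 8 integrin beta, 5 laminin alpha, 4 laminin beta and 3 laminin gamma genes. Of the 38, 32 passed the filter on low counts and were tested. The other 6, ITGA8, ITGA11, ITGAD, ITGAM, LAMA3 and LAMB4, did not pass it and are given by their counts only.

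The study asked what follows when NT5E, the gene of the ectoenzyme CD73, is knocked down in RD cells, a long-used human line derived from a fusion-negative rhabdomyosarcoma (a tumour of soft tissue that resembles immature skeletal muscle). All 12 RNA-seq libraries come from RD cells carrying a doxycycline-inducible hairpin against NT5E, either the construct titled ish or the one titled ish2, so the uninduced controls hold a hairpin too and no line without one is used here. The 4 groups of 3 libraries each are ish with doxycycline (Dox), ish without Dox, ish2 with Dox and ish2 without Dox. All 12 libraries had 24 h of attachment and 96 h of treatment, with Dox at 10 ng/mL or, in the no-Dox groups, at 0. The sources used here do not give whether a line is 1 clone or whether replicates were separate cultures, so p-values measure the spread between these libraries, which may be technical.

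Expression is given in CPM (gene counts relative to the library's TMM-scaled total), from 26566603 to 32692207 gene counts per library. NT5E averaged 1.57 ± 0.354 CPM in ish Dox libraries and 16.7 ± 1.61 CPM in ish no-Dox libraries, a 10.7-fold lower level. In the other construct it averaged 14.6 ± 0.542 CPM in ish2 Dox libraries and 23.3 ± 1.03 CPM in ish2 no-Dox libraries, a 1.59-fold lower level, so the knockdown was deeper in ish (difference in log2 fold change -2.74, adjusted p = 2.91e-19). A list of muscle markers fitted the label of the line: MYOD1, MYOG and DES were expressed in all groups, while MYF5 was at or near 0. The summed level of the list was 6015 to 6467 CPM in ish Dox, 2677 to 2842 in ish no Dox, 2407 to 2452 in ish2 Dox and 2749 to 2860.0 in ish2 no Dox. In ish 7 of the 10 tested genes rose (39.1% of all genes did) and 2 fell (39.5%). In ish2 2 rose (33.9% of all genes) and 7 fell (31.1%). MYOG, a transcription factor of muscle differentiation, was 6.17-fold higher with Dox in ish and 4.73-fold lower with Dox in ish2; the part of this shift in the results on the integrins and laminins was not tested.

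Integrins are receptors of the cell surface that pair an alpha with a beta chain, bind proteins of the extracellular matrix or of other cells, and link them to the actin cytoskeleton. Laminins are secreted trimers of an alpha, a beta and a gamma chain that assemble into the basement membrane, the sheet that wraps each muscle fibre. In skeletal muscle, laminins with the alpha2 chain are held by the integrin alpha7 beta1 and by dystroglycan, and loss of LAMA2 or ITGA7 causes congenital muscle disease.

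With Dox, the ish cells held far less mRNA for laminin chains LAMC1, LAMB1 and LAMA5 and for integrin chains ITGAV, ITGB5 and ITGB3. They held more for ITGB6, ITGB2, ITGA4 and ITGA6. In ish2 LAMB1 and LAMA5 fell less, LAMC1 and ITGAV were slightly higher with Dox, ITGB2 and ITGA4 fell, and ITGA6 rose as in ish. Genes were called at an edgeR adjusted p under 0.05 over all 15206 genes tested. In ish 12 members rose (39.1% of all genes did), 15 fell (39.5%) and 5 were not called, so 27 of 32 were called where 78.6% of all tested genes were; the count alone does not set the members apart. By size they stood further out: 14 members (43.8%) were called and changed at least 2-fold, against 17.8% of all genes, and the median absolute log2 fold change was 0.96 in the members and 0.40 in all tested genes. The members' signed median was -0.38. Of the 14, 11 fell (10.5% of all genes did) and 3 rose (7.28%), and the 3 are ITGA4, ITGB2 and ITGB6. That count of 3 became 5 without ish Dox replicate 1, 6 without ish Dox replicate 2, 6 without ish no-Dox replicate 1 and at the lowest 2. With each library left out in turn, the ish log2 fold change ran from 0.99 to 1.05 in ITGA4, from 0.90 to 1.05 in ITGA1 and from 0.66 to 1.14 in ITGA2, on both sides of 2-fold.

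In ish2 14 members rose (33.9% of all genes did), 10 fell (31.1%) and 8 were not called, so 24 of 32 were called, against 65% of all tested genes. ITGA6, ITGB3 and ITGB2 passed 2-fold there, with 4 in place of 2 rises without ish2 no-Dox replicate 1 and 2 in place of 1 fall without ish2 Dox replicate 3 or ish2 no-Dox replicate 2. They are 9.38% of the members against 6.14% of all genes. ITGA6 and ITGB3 rose by that much (3.88% of all genes did) and ITGB2 fell (2.26%). The median absolute log2 fold change was 0.35 in the members and 0.25 in all genes. The test of the difference between the 2 Dox effects called 26 of the 32 members, against 72.6% of all genes. The ish effect was the higher one in 8 (35.2% of all genes) and the lower one in 18 (37.4%). In 15 the difference was at least 2-fold (21.4% of all genes), higher in ish in 3 (8.48%) and lower in ish in 12 (12.9%), and the count of 3 became 5 without ish Dox replicate 2, ish no-Dox replicate 1 or ish2 Dox replicate 3. In 11 members, 34.4% of the 32, the calls of the 2 constructs were in opposite directions, against 26.1% of all genes tested. The constructs share no library.

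**Figure D1:**
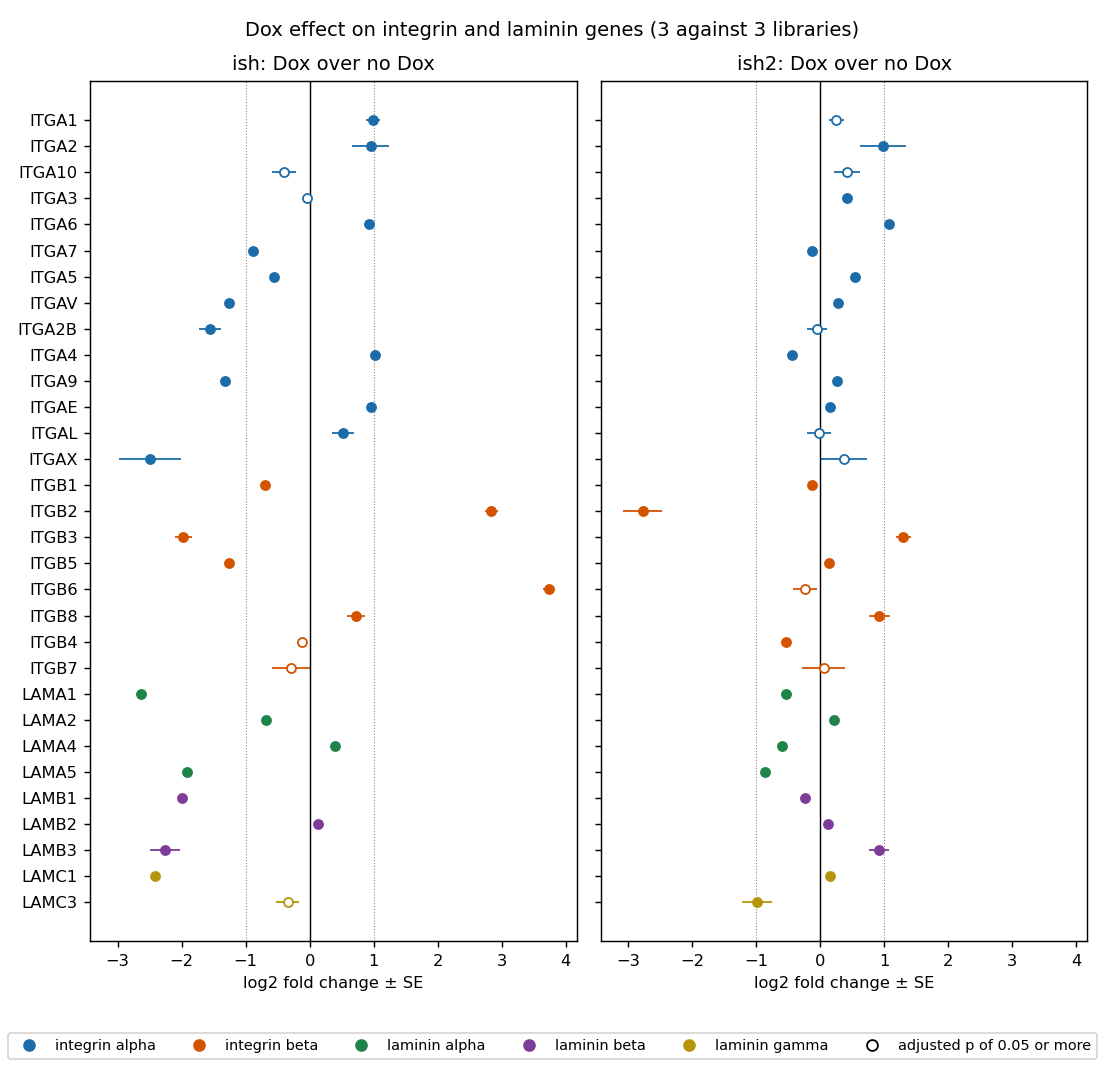
Dox effect on tested integrin and laminin genes, as log2 fold change of Dox over no Dox in ish (left) and ish2 (right), with bars of 1 SE and colours for the 5 classes; open circles have an adjusted p of 0.05 or more, and dotted lines mark 2-fold. The laminin genes LAMC1, LAMB1, LAMA5, LAMA1 and LAMB3 lie left of the 2-fold line in ish and right of it in ish2, while ITGB6 and ITGB2 lie far to the right in ish.

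LAMA1, LAMC1 and LAMB3 were among the deepest falls in ish. LAMC1, the gamma chain found in most laminins, had 278, 271 and 269.7 CPM in ish Dox libraries, against 1439.8, 1512 and 1416 CPM in ish no-Dox libraries. It had 1407, 1415 and 1468 CPM in ish2 Dox libraries, against 1341, 1278 and 1250.4 CPM in ish2 no-Dox libraries. Every ish Dox library therefore lay below every other library, and in ish2 the Dox libraries lay just above their controls. LAMC1 fell 5.34-fold in ish (log2 fold change -2.42 ± 0.029 SE, adjusted p = 1.81e-37) and rose 1.11-fold in ish2 (log2 fold change 0.15 ± 0.027 SE, adjusted p = 1.02e-05). Of the other abundant chains, LAMB1 shares 70 exonic bases with DLD and LAMA5 shares 244 with ADRM1, both on the opposite strand. As these are bulk samples, fewer cells with the transcript and less of it per cell cannot be told apart, here and below.

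LAMB1, the beta chain that most often joins LAMC1, had 392.2, 387 and 384 CPM in ish Dox libraries, against 1518, 1582 and 1507 CPM in ish no-Dox libraries. Its ish2 values were 1159, 1169 and 1206 CPM in ish2 Dox libraries, against 1455, 1427 and 1299 CPM in ish2 no-Dox libraries. The groups did not overlap in either construct, and the fall was 3.96-fold in ish (log2 fold change -1.99, adjusted p = 1.04e-27) but 1.18-fold in ish2 (log2 fold change -0.24, adjusted p = 1.06e-07). Both genes had a single start in the RefSeq promoter table (GRCh38.p14; 250 bases before the start to 50 after it), and both starts are rich in CG dinucleotides, 41 at LAMC1 and 35 at LAMB1 against a median of 14 over 35116 promoters. They follow in lower case, 5′ to 3′ on the gene's strand with each CG in capitals, beside those of ITGA4 and ITGB6, which rose. ITGA4 has 31 CG dinucleotides, and ITGB6 has 0, as do 3.961% of all promoters.
LAMC1 (chr1:183023170-183023469, plus strand): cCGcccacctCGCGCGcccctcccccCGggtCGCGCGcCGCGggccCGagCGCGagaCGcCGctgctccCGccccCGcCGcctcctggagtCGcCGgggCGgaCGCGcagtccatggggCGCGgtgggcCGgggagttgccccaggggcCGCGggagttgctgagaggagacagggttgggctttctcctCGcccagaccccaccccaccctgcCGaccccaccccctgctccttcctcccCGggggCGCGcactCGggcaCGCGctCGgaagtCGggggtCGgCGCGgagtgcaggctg
LAMB1 (chr7:108003112-108003411, minus strand): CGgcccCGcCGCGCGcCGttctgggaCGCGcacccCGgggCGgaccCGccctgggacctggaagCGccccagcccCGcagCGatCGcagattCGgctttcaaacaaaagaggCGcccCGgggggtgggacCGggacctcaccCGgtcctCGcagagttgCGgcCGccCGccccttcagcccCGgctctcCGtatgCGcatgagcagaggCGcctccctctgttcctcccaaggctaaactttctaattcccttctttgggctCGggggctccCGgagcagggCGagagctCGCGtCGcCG
ITGA4 (chr2:181457136-181457435, plus strand): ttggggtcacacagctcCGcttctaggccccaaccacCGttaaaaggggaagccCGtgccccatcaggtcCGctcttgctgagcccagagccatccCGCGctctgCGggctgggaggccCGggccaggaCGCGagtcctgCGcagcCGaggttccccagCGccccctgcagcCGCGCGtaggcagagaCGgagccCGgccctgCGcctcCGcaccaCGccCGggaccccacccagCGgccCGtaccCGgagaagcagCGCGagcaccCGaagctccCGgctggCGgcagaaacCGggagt
ITGB6 (chr2:160200223-160200522, minus strand): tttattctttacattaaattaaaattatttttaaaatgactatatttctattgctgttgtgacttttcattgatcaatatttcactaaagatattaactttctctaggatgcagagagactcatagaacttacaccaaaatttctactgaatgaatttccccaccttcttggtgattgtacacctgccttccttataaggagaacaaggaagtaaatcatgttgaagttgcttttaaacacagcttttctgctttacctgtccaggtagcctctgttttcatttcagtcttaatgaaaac
The GC content of these windows was 79.0% for LAMC1, 71.0% for LAMB1, 72.3% for ITGA4 and 31.7% for ITGB6, against a median of 58.67% over all promoters. Among these 4, LAMC1 and LAMB1 fell and ITGA4 rose with a CG-rich start, and ITGB6 rose with no CG. Whether base composition goes with direction over the members was not tested.

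Among the laminin alpha chains, LAMA5, a chain of embryonic and epithelial basement membranes, had 118, 109 and 113 CPM in ish Dox libraries, against 431, 429.8 and 427 CPM in ish no-Dox libraries. The other construct gave 225, 219 and 221 CPM in ish2 Dox libraries, against 404, 421 and 389 CPM in ish2 no-Dox libraries. It fell in both constructs, 3.78-fold in ish (log2 fold change -1.92, adjusted p = 2.75e-35) and 1.83-fold in ish2 (log2 fold change -0.87, adjusted p = 1.43e-24), with no overlap of groups. LAMA1, the alpha chain of the early embryo, had 6.63, 7.48 and 7.66 CPM in ish Dox libraries, against 45.3, 44.1 and 45.3 CPM in ish no-Dox libraries. LAMA1 in ish2 had 26.5, 26.2 and 29.1 CPM in ish2 Dox libraries, against 40.5, 38.8 and 39.4 CPM in ish2 no-Dox libraries. LAMA1 showed the largest fall of any tested laminin chain in ish (log2 fold change -2.63, adjusted p = 5.77e-31), and a smaller one in ish2 (log2 fold change -0.54, adjusted p = 1.68e-12).

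LAMA2, the chain of mature muscle basement membrane, had 216, 219.8 and 219 CPM in ish Dox libraries, against 346, 357 and 342 CPM in ish no-Dox libraries. In ish2 it had 376, 377 and 384 CPM in ish2 Dox libraries, against 334, 322 and 321 CPM in ish2 no-Dox libraries. The call was a fall in ish (log2 fold change -0.67, adjusted p = 2.50e-23) and a rise in ish2 (log2 fold change 0.22, adjusted p = 2.02e-09), without overlap in either. LAMA4, a chain of vessel walls and growing muscle, went the opposite way. It averaged 204 ± 3.49 CPM in ish Dox libraries and 155 ± 3.19 CPM in ish no-Dox libraries, a rise (log2 fold change 0.40, adjusted p = 6.05e-15), and 85.2 ± 4.54 CPM in ish2 Dox libraries and 129 ± 1.44 CPM in ish2 no-Dox libraries, a fall (log2 fold change -0.60, adjusted p = 3.12e-18). LAMA4 was the only laminin alpha chain that rose in ish. Fibroblast markers summed to 208 to 209.8 CPM in ish Dox, 355 to 371 in ish no Dox, 373 to 389.8 in ish2 Dox and 379.5 to 395 in ish2 no Dox, with FAP at 0. The list was split: of 5 tested, 2 rose and 3 fell in ish, and 3 rose and 2 fell in ish2. Endothelial markers summed to 8.49 to 9.02 CPM in ish Dox, 15.5 to 16.7 in ish no Dox, 22.6 to 24.3 in ish2 Dox and 16.8 to 17.7 in ish2 no Dox. Of 5 tested, 1 rose and 3 fell in ish, and 1 rose and 1 fell in ish2. Of all tested genes 39.1% rose and 39.5% fell in ish, and 33.9% and 31.1% in ish2. The part of both marker lists in the laminin results was not tested. LAMA3, an epithelial chain, was left out of the test with 0 to 4 reads per library.

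LAMB2, the beta chain concentrated at the nerve-muscle synapse, averaged 159 ± 1.38 CPM in ish Dox libraries and 145 ± 3.53 CPM in ish no-Dox libraries (log2 fold change 0.13, adjusted p = 9.83e-04). In ish2 it averaged 147 ± 5.22 CPM in ish2 Dox libraries and 135 ± 8.61 CPM in ish2 no-Dox libraries (log2 fold change 0.12, adjusted p = 0.00272), where the groups overlapped and the call was lost without ish2 Dox replicate 3 (log2 fold change 0.076) or ish2 no-Dox replicate 3 (0.060). LAMB2 thus changed little while LAMB1 fell. It has a pseudogene, LAMB2P1, which could share reads with it. LAMB3, a laminin beta chain of skin, had 0.328, 0.399 and 0.339 CPM in ish Dox libraries, against 1.58, 1.69 and 1.86 CPM in ish no-Dox libraries. Its ish2 values were 2.71, 3.34 and 3.42 CPM in ish2 Dox libraries, against 1.91, 1.65 and 1.45 CPM in ish2 no-Dox libraries. It fell 4.79-fold in ish (log2 fold change -2.26, adjusted p = 5.70e-11) and rose 1.89-fold in ish2 (log2 fold change 0.92, adjusted p = 2.66e-06). LAMB3 had the fewest reads of the tested laminin beta chains, with 10, 12 and 11 in ish Dox libraries, so its ish fall rests on few reads. LAMC3 was not called in ish (log2 fold change -0.34, adjusted p = 0.0766) and fell in ish2, to 0.730 ± 0.285 CPM in ish2 Dox libraries, against 1.47 ± 0.156 CPM in ish2 no-Dox libraries (log2 fold change -0.99, adjusted p = 2.97e-04). LAMC3 was called in ish without ish Dox replicate 1 (log2 fold change -0.47). LAMB4 had 2 to 13 reads per library and was not tested.

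**Figure D2:**
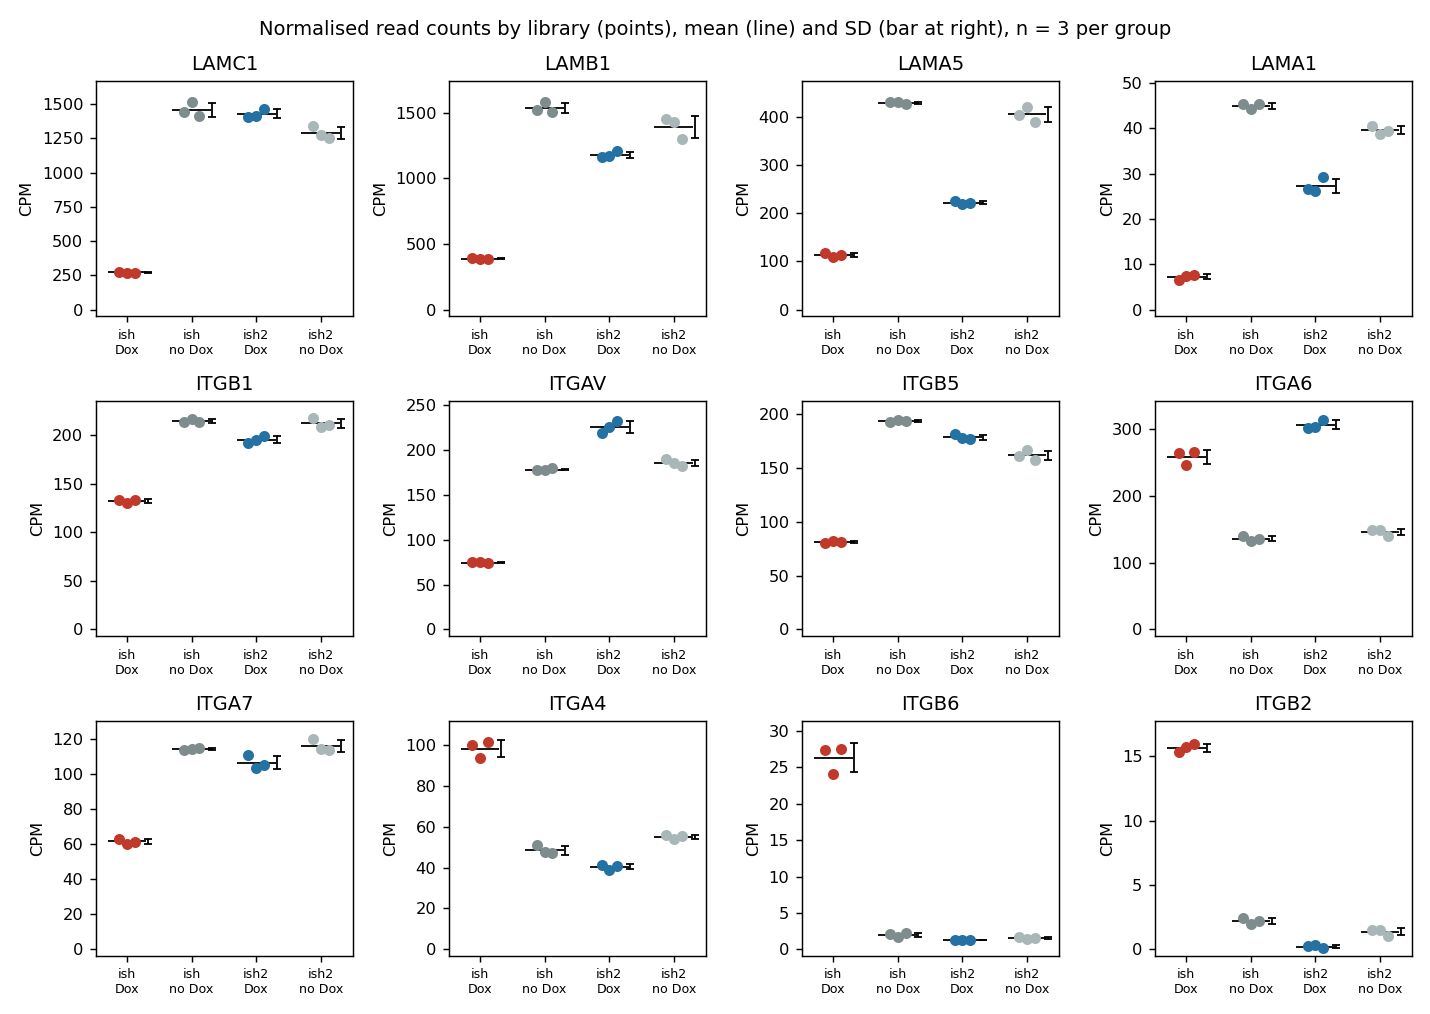
TMM-scaled CPM of 12 integrin and laminin genes in each of the 12 libraries, 1 panel per gene on a linear axis, with a point per library, a line at the group mean and a bar of 1 SD at its right, in the order ish Dox, ish no Dox, ish2 Dox, ish2 no Dox. In ish the Dox points of LAMC1 (270 to 278 CPM) lie well below those without Dox (1416 to 1512 CPM), whereas both ish2 groups lie between 1250 and 1468 CPM.

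The integrin beta chains set which receptor families can form. ITGB1, the partner of most alpha chains and of all laminin-binding ones but the alpha6 beta4 pair, had 134, 130.4 and 133 CPM in ish Dox libraries, against 214, 217 and 214 CPM in ish no-Dox libraries. The other construct gave 192, 195 and 199 CPM in ish2 Dox libraries, against 218, 208 and 211 CPM in ish2 no-Dox libraries. It fell 1.62-fold in ish (log2 fold change -0.70, adjusted p = 3.15e-23) and 1.09-fold in ish2 (log2 fold change -0.12, adjusted p = 1.59e-04), with no overlap.

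ITGB5, a beta partner of ITGAV in vitronectin receptors, had 80.1, 82.3 and 81.4 CPM in ish Dox libraries, against 193, 195 and 193 CPM in ish no-Dox libraries. ITGB5 in ish2 had 181, 177 and 177 CPM in ish2 Dox libraries, against 161, 167 and 158 CPM in ish2 no-Dox libraries. The fall in ish was 2.38-fold (log2 fold change -1.25, adjusted p = 2.03e-30), and the ish2 libraries showed a small rise (log2 fold change 0.14, adjusted p = 1.60e-05). ITGB3, which pairs with ITGAV and with the platelet chain ITGA2B, had 1.54, 1.69 and 1.82 CPM in ish Dox libraries, against 6.52, 6.96 and 6.40 CPM in ish no-Dox libraries. In ish2 it had 7.92, 9.79 and 8.66 CPM in ish2 Dox libraries, against 4.41, 3.60 and 2.68 CPM in ish2 no-Dox libraries. ITGB3 fell 3.92-fold in ish (log2 fold change -1.97, adjusted p = 6.96e-15) and rose 2.46-fold in ish2 (log2 fold change 1.30, adjusted p = 8.73e-12), and the uninduced lines already differed, by 0.89 on the log2 scale for ish over ish2 (adjusted p = 9.20e-07). It shares 2266 exonic bases with AC068234.1 on the same strand.

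ITGB6, the beta chain of an ITGAV receptor that activates latent TGF-beta, mostly in epithelia, had 27.4, 24.1 and 27.5 CPM in ish Dox libraries, against 2.04, 1.63 and 2.24 CPM in ish no-Dox libraries. Its ish2 values were 1.27, 1.34 and 1.31 CPM in ish2 Dox libraries, against 1.73, 1.35 and 1.52 CPM in ish2 no-Dox libraries. This was the largest rise among the members, 13.4-fold (log2 fold change 3.74 ± 0.090 SE, adjusted p = 2.01e-29), and the ish2 change was not called (log2 fold change -0.24, adjusted p = 0.278). A list of epithelial markers summed to 0.558 to 1.30 CPM in ish Dox, 1.08 to 1.40 in ish no Dox, 1.82 to 2.08 in ish2 Dox and 0.940 to 1.77 in ish2 no Dox. Only 1 of the 10 markers passed the filter on low counts. That marker fell in ish (log2 fold change -0.92) and rose in ish2 (0.75). The relation of the list to the ITGB6 rise was not tested. ITGB8, another ITGAV partner that binds latent TGF-beta, rose in both constructs (log2 fold change 0.73 in ish and 0.92 in ish2), at a mean of 3.15 ± 0.394 CPM in ish Dox libraries and 1.91 ± 0.176 CPM in ish no-Dox libraries.

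ITGB2, the beta chain of the leukocyte integrins, had 15.3, 15.7 and 15.9 CPM in ish Dox libraries, against 2.40, 1.98 and 2.17 CPM in ish no-Dox libraries. The other construct gave 0.240, 0.297 and 0.0639 CPM in ish2 Dox libraries, against 1.52, 1.502 and 1.05 CPM in ish2 no-Dox libraries. It rose 7.16-fold in ish (log2 fold change 2.84, adjusted p = 3.91e-24) and fell 6.84-fold in ish2 (log2 fold change -2.77, adjusted p = 7.50e-10), the widest gap between the constructs of any member, a difference in log2 fold change of 5.61 (adjusted p = 3.73e-18). The ish2 Dox values came from 7, 8 and 2 reads, so the size of the ish2 fall is loosely set. With each library left out in turn, the ish2 log2 fold change ran from -3.17 to -2.34. Leukocyte markers summed to 1.99 to 2.62 CPM in ish Dox, 3.66 to 4.08 in ish no Dox, 5.52 to 6.01 in ish2 Dox and 3.29 to 4.26 in ish2 no Dox. Of these 12 markers 8 stayed under 0.1 CPM in every library, PTPRC averaged at most 0.0420 CPM in any group, and CD3D and MS4A1 were at 0 in all libraries. Of the 4 tested markers 0 rose and 3 fell in ish, against 39.1% and 39.5% of all genes. In ish2 2 rose and 0 fell, against 33.9% and 31.1%. The relation of these markers to the ITGB2 changes was not tested.

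ITGB4, which joins ITGA6 at the epithelial hemidesmosome, was not called in ish (log2 fold change -0.11, adjusted p = 0.126) and fell in ish2 to 7.96 ± 0.400 CPM in ish2 Dox libraries, against 11.6 ± 0.0390 CPM in ish2 no-Dox libraries (log2 fold change -0.54, adjusted p = 5.83e-08). ITGB7, a lymphocyte chain, was called in neither construct, at 0.505 ± 0.146 CPM in ish Dox libraries and 0.614 ± 0.199 CPM in ish no-Dox libraries (adjusted p = 0.371 in ish and 0.895 in ish2). It shares 1886 exonic bases with ZNF740 on the opposite strand, so its reads are uncertain where counting did not use strand, which the sources used here do not state.

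Among the laminin-binding alpha chains, ITGA6 and ITGA7 moved apart in ish. ITGA6, typical of progenitor cells and epithelia, had 265, 247 and 265 CPM in ish Dox libraries, against 139.8, 133 and 136 CPM in ish no-Dox libraries. ITGA6 in ish2 had 302, 304 and 314 CPM in ish2 Dox libraries, against 149, 149 and 141 CPM in ish2 no-Dox libraries. It rose in both, 1.90-fold in ish (log2 fold change 0.93, adjusted p = 3.02e-25) and 2.10-fold in ish2 (log2 fold change 1.07, adjusted p = 3.03e-26), with a difference of -0.14 between the effects (adjusted p = 0.00324). ITGA7, the laminin receptor of differentiated muscle fibres, had 63.0, 60.2 and 61.5 CPM in ish Dox libraries, against 114, 114 and 115 CPM in ish no-Dox libraries. In ish2 it had 111, 103 and 105 CPM in ish2 Dox libraries, against 120.0, 114 and 114 CPM in ish2 no-Dox libraries. It fell 1.85-fold in ish (log2 fold change -0.89, adjusted p = 4.26e-24), in the libraries with the highest sum of muscle markers, and 1.09-fold in ish2 (log2 fold change -0.12, adjusted p = 6.16e-04). ITGA3, another laminin-binding alpha chain, was not called in ish (log2 fold change -0.039, adjusted p = 0.480) and rose in ish2 (log2 fold change 0.42, adjusted p = 2.88e-09), averaging 50.9 ± 1.98 CPM in ish2 Dox libraries and 38.2 ± 2.94 CPM in ish2 no-Dox libraries.

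ITGAV, ITGA5 and ITGA2B, alpha chains that bind the RGD motif of fibronectin, vitronectin or fibrinogen, fell in ish. ITGAV, the shared alpha chain of ITGB3, ITGB5, ITGB6 and ITGB8, had 74.7, 75.3 and 74.0 CPM in ish Dox libraries, against 178, 178 and 179.6 CPM in ish no-Dox libraries. Its ish2 values were 219, 226 and 233 CPM in ish2 Dox libraries, against 189.8, 185 and 182 CPM in ish2 no-Dox libraries. The fall was 2.39-fold in ish (log2 fold change -1.26, adjusted p = 5.79e-30), against a 1.22-fold rise in ish2 (log2 fold change 0.28, adjusted p = 2.22e-11). ITGA5, the alpha chain of the classical fibronectin receptor, had 67.9, 71.0 and 68.4 CPM in ish Dox libraries, against 97.7, 106 and 102 CPM in ish no-Dox libraries. The other construct gave 158, 163 and 161 CPM in ish2 Dox libraries, against 115, 114 and 101 CPM in ish2 no-Dox libraries. It fell in ish (log2 fold change -0.56, adjusted p = 2.66e-13) and rose by nearly the same size in ish2 (log2 fold change 0.55, adjusted p = 2.91e-13), without overlap in either. ITGA2B, the platelet fibrinogen receptor chain, had 0.853, 0.997 and 1.26 CPM in ish Dox libraries, against 3.13, 3.45 and 2.67 CPM in ish no-Dox libraries. ITGA2B in ish2 had 2.36, 1.97 and 2.81 CPM in ish2 Dox libraries, against 2.78, 2.44 and 2.21 CPM in ish2 no-Dox libraries. The fall in ish was called (log2 fold change -1.56, adjusted p = 4.06e-10) and the ish2 change was not (log2 fold change -0.046, adjusted p = 0.812). Platelet markers summed to at most 2.09 CPM in any library, with GP9, PF4 and PPBP at 0 throughout.

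ITGA5 was the one member whose promoter held all of the 3 short motifs searched on both strands, and it is shown for that reason. These are CAGCTG, an E-box core bound by MYOD1 and MYOG; TGACTCA (or TGAGTCA), the AP-1 element; and GGAATG (or CATTCC), the core of the TEAD element. No motif overlaps another in the ITGA5 window. There the E-box lies at -175, the TEAD core at -82 and the AP-1 element at -6 bases from the start, and they are in capitals.
ITGA5 (chr12:54419217-54419516, minus strand): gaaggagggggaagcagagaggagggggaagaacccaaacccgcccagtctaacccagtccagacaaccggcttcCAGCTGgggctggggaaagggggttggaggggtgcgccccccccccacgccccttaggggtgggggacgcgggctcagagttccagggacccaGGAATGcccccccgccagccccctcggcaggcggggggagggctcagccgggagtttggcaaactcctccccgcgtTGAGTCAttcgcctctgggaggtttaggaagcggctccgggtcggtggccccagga
Promoters were found for 26 of the 38 genes, 33 windows in all. CAGCTG occurred in 6 of the 33 (ITGA5, ITGA6, ITGA8, ITGA11 and LAMA2 among the genes) and in 17.95% of all promoters. The AP-1 element occurred in 3 of the 33 (ITGA5, LAMA3 and LAMB3) and in 4.949% of all promoters, and the TEAD core in 4 of the 33 (ITGA5, ITGA10, ITGB1 and LAMA2) and in 14.03%. Among these genes were ones that rose, fell and were not tested, and a match is a description of letters only.

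ITGA4 and ITGA9, close relatives that both bind VCAM1, took opposite directions. ITGA4, which also binds fibronectin and is known from leukocytes and developing muscle, had 100.05, 93.5 and 101 CPM in ish Dox libraries, against 51.0, 47.4 and 47.2 CPM in ish no-Dox libraries. In ish2 it had 41.2, 39.1 and 41.0 CPM in ish2 Dox libraries, against 55.9, 54.1 and 55.4 CPM in ish2 no-Dox libraries. It rose 2.03-fold in ish (log2 fold change 1.02, adjusted p = 3.08e-24) and fell 1.36-fold in ish2 (log2 fold change -0.45, adjusted p = 6.29e-12). ITGA9, a tenascin-C receptor, had 21.8, 19.0 and 19.8 CPM in ish Dox libraries, against 49.7, 50.2 and 51.9 CPM in ish no-Dox libraries. Its ish2 values were 58.9, 59.6 and 61.9 CPM in ish2 Dox libraries, against 49.6, 51.3 and 49.2 CPM in ish2 no-Dox libraries. The call was a 2.51-fold fall in ish (log2 fold change -1.32, adjusted p = 7.47e-25) and a 1.20-fold rise in ish2 (log2 fold change 0.27, adjusted p = 2.93e-07). ITGA4, ITGA6, ITGAV and ITGB6 lie on chromosome 2. ITGA4 is at chr2:181457202-181536187 (plus strand), ITGA6 at chr2:172427354-172506282 (plus strand), ITGAV at chr2:186590065-186680901 (plus strand) and ITGB6 at chr2:160099666-160200313 (minus strand), and of these only ITGAV fell in ish.

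Of the collagen-binding alpha chains, ITGA1 and ITGA2 rose in ish and ITGA10 was not called. ITGA1 averaged 5.72 ± 0.383 CPM in ish Dox libraries and 2.89 ± 0.294 CPM in ish no-Dox libraries and rose there (log2 fold change 0.99, adjusted p = 5.90e-10), but was not called in ish2 (log2 fold change 0.25, adjusted p = 0.0637); without ish2 Dox replicate 1 or ish2 no-Dox replicate 1 it was (log2 fold changes 0.30 and 0.31). It shares 475 exonic bases with PELO on the same strand. ITGA2 averaged 0.887 ± 0.230 CPM in ish Dox libraries and 0.458 ± 0.176 CPM in ish no-Dox libraries and was called higher in both constructs (log2 fold change 0.95, adjusted p = 0.00325; log2 fold change 0.98, adjusted p = 0.0174). The ish2 call of ITGA2 was lost in DESeq2 (adjusted p = 0.0603) and without ish2 Dox replicate 2 (log2 fold change 0.90), ish2 no-Dox replicate 2 (0.80) or ish2 no-Dox replicate 3 (0.77). ITGA10 was called in neither (adjusted p = 0.0502 in ish and 0.0632 in ish2), with a log2 fold change of -0.41 in ish. That ITGA10 value sat at the threshold: it passed without ish no-Dox replicate 2 (-0.55), without any single ish2 library but ish2 Dox replicate 2 (-0.41 to -0.42), and in ish2 it passed without ish2 Dox replicate 1 (0.55). ITGA11 had 0 to 3 reads per library, and ITGA8, a nephronectin receptor chain, had 0 or 1.

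Among the alpha chains known from leukocytes, ITGAE and ITGAL rose in ish and ITGAX fell. ITGAE, the cadherin-binding alpha chain of mucosal lymphocytes, averaged 27.01 ± 1.16 CPM in ish Dox libraries and 13.9 ± 0.851 CPM in ish no-Dox libraries and rose 1.94-fold in ish (log2 fold change 0.96, adjusted p = 2.47e-17). Its ish2 rise was small (log2 fold change 0.15, adjusted p = 0.0319) and was not called in DESeq2 (adjusted p = 0.110) or without any one of 6 libraries (adjusted p up to 0.209; log2 fold change 0.10 without ish2 Dox replicate 1, 0.11 without ish2 Dox replicate 2 or ish2 no-Dox replicate 1, 0.13 without ish2 no-Dox replicate 2, and 0.14 without ish Dox replicate 3 or ish no-Dox replicate 3). ITGAE shares 427 exonic bases with HASPIN on the opposite strand. ITGAL averaged 2.08 ± 0.0992 CPM in ish Dox libraries and 1.45 ± 0.240 CPM in ish no-Dox libraries (log2 fold change 0.52, adjusted p = 0.00705), and its ish call was lost without ish no-Dox replicate 3 (log2 fold change 0.39). In ish2 ITGAL was not called (log2 fold change -0.017, adjusted p = 0.943).

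ITGAX had 0.0656, 0.0332 and 0.185 CPM in ish Dox libraries, against 0.296, 0.766 and 0.621 CPM in ish no-Dox libraries, which in ish Dox came from 2, 1 and 6 reads. The other construct gave 0.480, 0.593 and 0.543 CPM in ish2 Dox libraries, against 0.614, 0.225 and 0.398 CPM in ish2 no-Dox libraries. The fall in ish was called (log2 fold change -2.49, adjusted p = 2.08e-05), with a log2 fold change of -3.41 without ish Dox replicate 3, and the ish2 change was not called (log2 fold change 0.37, adjusted p = 0.387). At so few reads its size is loosely set. ITGAM had 2 to 18 reads per library and ITGAD, a close paralog of ITGAX, 0 to 5. Per kilobase of exons, in ish Dox libraries, ITGB2 averaged 2.30 ± 0.0456 CPM, against 0.321 ± 0.0153 for ITGAL, 0.0557 ± 0.0366 for ITGAM, 0.0134 ± 0.0113 for ITGAX and 0.0170 ± 0.0188 for ITGAD, its alpha partners.

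Levels of different genes were compared as CPM per kilobase of exonic length (GENCODE 29, GRCh38), summed within each class. The integrin alpha sum was 91.2 ± 2.31 CPM per kilobase in ish Dox libraries, 93.2 ± 0.272 in ish no-Dox libraries, 134 ± 1.95 in ish2 Dox libraries and 98.3 ± 2.82 in ish2 no-Dox libraries. ITGA6 made up 43.5% with Dox and 22.4% without in ish, and 35.0% with Dox and 22.7% without in ish2. ITGAV made up 9.98% with Dox and 23.3% without in ish, and 20.5% with Dox and 23.0% without in ish2. In ish the gap between the alpha sums was smaller than the SD of the Dox libraries but larger than that of the no-Dox libraries, and in ish2 the sum itself was higher with Dox. No test was run on sums or shares.

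The integrin beta sum was 44.8 ± 0.555 CPM per kilobase in ish Dox libraries, 69.9 ± 0.413 in ish no-Dox libraries, 63.9 ± 0.298 in ish2 Dox libraries and 63.6 ± 1.05 in ish2 no-Dox libraries. ITGB1 held 49.2% with Dox and 51.1% without in ish, and 50.8% with Dox and 55.5% without in ish2, and so kept its place as the first beta chain in all groups. ITGB5 held 28.2% with Dox and 43.0% without in ish, and 43.3% with Dox and 39.4% without in ish2. ITGB6 took 12.6% with Dox and 0.601% without in ish, and 0.435% with Dox and 0.515% without in ish2.

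Laminin sums differed most between the ish groups. The alpha sum was 47.1 ± 0.392 CPM per kilobase in ish Dox libraries, 79.9 ± 0.533 in ish no-Dox libraries, 61.2 ± 0.840 in ish2 Dox libraries and 73.5 ± 1.38 in ish2 no-Dox libraries, and LAMA4 held 37.5% with Dox and 16.8% without in ish, and 12.02% with Dox and 15.2% without in ish2. LAMA5 held 16.8% with Dox and 37.6% without in ish, and 25.4% with Dox and 38.6% without in ish2. The largest share in all groups was that of LAMA2. It held 44.7% with Dox and 42.1% without in ish, and 59.8% with Dox and 42.8% without in ish2. The beta sum was 70.8 ± 0.685 CPM per kilobase in ish Dox libraries, 210.2 ± 5.42 in ish no-Dox libraries, 167 ± 3.85 in ish2 Dox libraries and 191 ± 11.3 in ish2 no-Dox libraries, with LAMB2 at 32.7% with Dox and 10.1% without in ish, and 12.8% with Dox and 10.3% without in ish2. The gamma sum, almost all LAMC1, was 32.8 ± 0.565 CPM per kilobase in ish Dox libraries, 174 ± 5.95 in ish no-Dox libraries, 170.4 ± 3.98 in ish2 Dox libraries and 154 ± 5.57 in ish2 no-Dox libraries. In ish Dox libraries the gamma chains were therefore the scarcest laminin class per kilobase, while in ish no-Dox libraries they exceeded the alpha chains.

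Some of this order depends on the length used. With the longest transcript in place of all exons, the alpha chains without Dox ranked as ITGA7, then ITGAV, then ITGA6, in place of ITGAV, then ITGA6, then ITGA7. LAMA5 ranked above LAMA2 without Dox, and LAMA4 ranked first among the laminin alpha chains in ish Dox libraries. The ratio of 1 gene between groups does not depend on length.

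**Figure D3:**
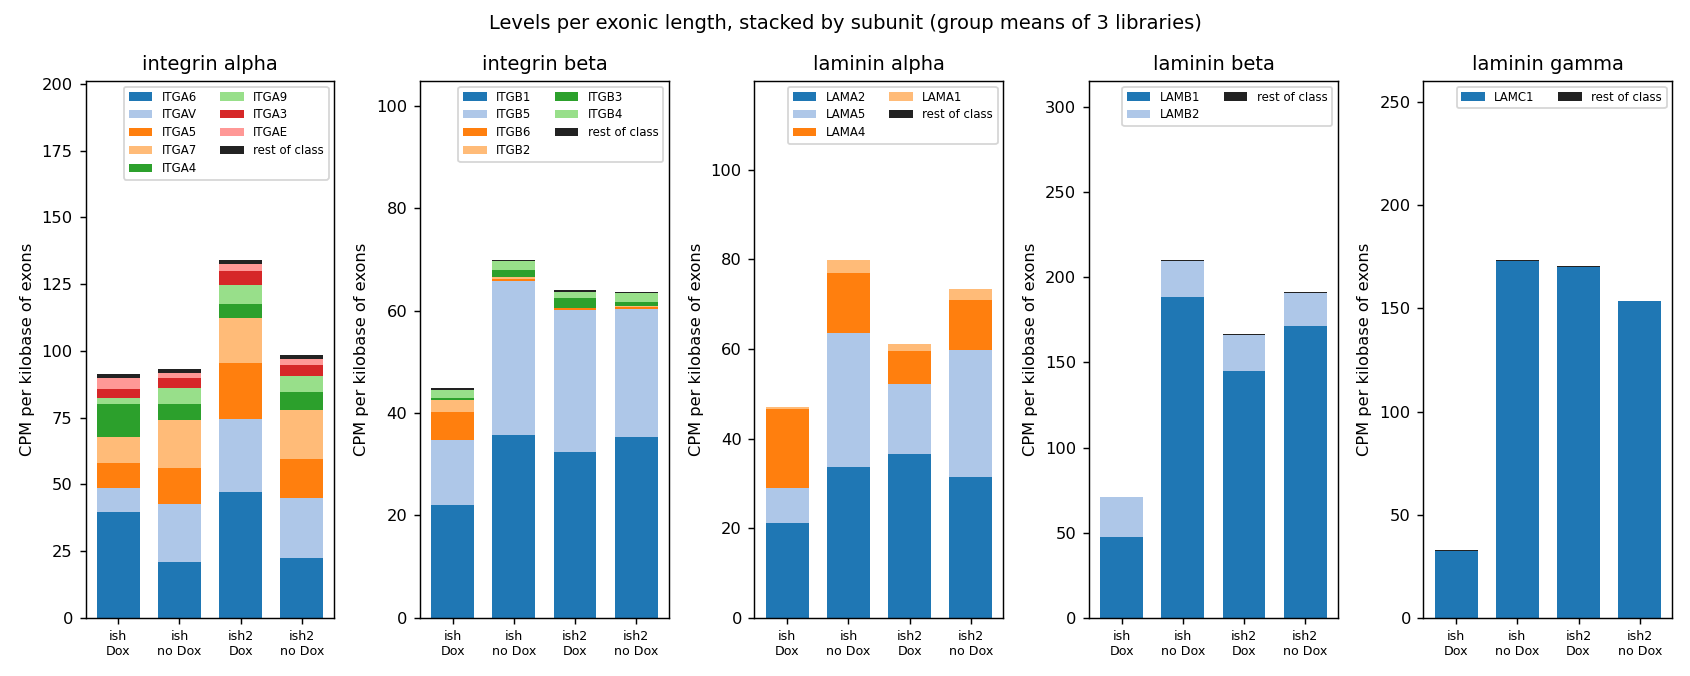
Make-up of each class by gene, as stacked CPM per kilobase of exonic length (mean of 3 libraries), for ish Dox, ish no Dox, ish2 Dox and ish2 no Dox. The laminin beta and gamma bars of ish Dox stand at 70.8 and 32.8 CPM per kilobase, against 210.2 and 174 in ish no Dox, and ITGA6 takes the largest share of the alpha bar with Dox in both constructs.

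Set side by side, the calls of the 2 constructs fell into all combinations. Members higher with Dox in both were ITGA2, ITGA6, ITGAE, ITGB8 and LAMB2 (15.6% of the 32, against 13.8% of all tested genes). Lower in both were ITGA7, ITGB1, LAMA1, LAMA5 and LAMB1 (15.6%, against 14.1%). The most frequent combination was lower in ish and higher in ish2, with 8 members, ITGA5, ITGAV, ITGA9, ITGB3, ITGB5, LAMA2, LAMB3 and LAMC1 (25%, against 14.1% of all genes). The reverse, higher in ish and lower in ish2, held for ITGA4, ITGB2 and LAMA4 (9.38%, against 12%). Of the 10 members called in both constructs in one direction, the ish fall was the deeper one in ITGA7, ITGB1, LAMA1, LAMA5 and LAMB1, each with a called difference. ITGA6 rose more in ish2 (difference -0.14) and ITGAE more in ish (0.81), whereas the difference was not called for ITGA2 (adjusted p = 0.957), ITGB8 (adjusted p = 0.435) and LAMB2 (adjusted p = 0.911).

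The uninduced lines were also compared. Without Dox, 10 members were higher in ish than in ish2 (12.4% of all genes were) and 4 were lower (13.7%), 14 of 32 against 26.1% of all tested genes, and none differed 2-fold (0.421% of all genes did, with 0.322% higher and 0.0986% lower in ish; 1 member was 2-fold higher without ish2 no-Dox replicate 1). The count of 4 became 2 without ish no-Dox replicate 3, ish2 no-Dox replicate 1 or ish2 no-Dox replicate 2. ITGB3 (log2 fold change 0.89, adjusted p = 9.20e-07) and ITGB2 (log2 fold change 0.69, adjusted p = 0.00291) were the largest of the called differences. For LAMC1 it was 0.17 and for ITGAV -0.059, against log2 Dox effects in ish of -2.42 and -1.26.

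Around the receptors, the list of integrin adaptors and focal adhesion proteins held 45 tested genes. In ish 18 rose (40%, against 39.1% of all genes) and 22 fell (48.9%, against 39.5%). In ish2 16 rose (35.6%, against 33.9%) and 18 fell (40%, against 31.1%). FERMT2 (kindlin), which activates integrins from inside the cell, showed the deepest of the 4 falls with the smallest p in ish, to 19.2 ± 0.396 CPM in ish Dox libraries, against 108 ± 1.51 CPM in ish no-Dox libraries (log2 fold change -2.49, adjusted p = 6.35e-36). In ish2 FERMT2 averaged 129 ± 2.79 CPM in ish2 Dox libraries and 111 ± 2.78 CPM in ish2 no-Dox libraries (log2 fold change 0.21, adjusted p = 5.62e-08). The focal adhesion kinase PTK2 (log2 fold change -1.21), the tensin TNS2 (-1.78) and LIMS1 (-1.34), which joins integrin-linked kinase to the adhesion, also fell in ish. In ish2 the 4 with the smallest p were the filamin FLNC (-1.04), TNS3 (0.80), the caveolin CAV1 (0.96) and the talin TLN2 (-0.88).

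Among other basement membrane proteins, 5 of 20 tested genes rose (25%) and 10 fell (50%) in ish, and the same numbers rose and fell in ish2. Of all genes 39.1% rose and 39.5% fell in ish, and 33.9% and 31.1% in ish2. In ish the collagen IV chains COL4A1 (log2 fold change -2.15) and COL4A2 (-1.87) fell with LAMC1 and LAMB1, and the perlecan gene HSPG2 rose (0.74). NID1, the nidogen that links laminin gamma1 to collagen IV, averaged 101 ± 5.02 CPM in ish Dox libraries and 226 ± 2.69 CPM in ish no-Dox libraries. In ish2 it averaged 104 ± 1.53 CPM in ish2 Dox libraries and 242 ± 4.06 CPM in ish2 no-Dox libraries. NID1 fell in both, with log2 fold changes of -1.16 in ish and -1.23 in ish2 and a difference of 0.071 (adjusted p = 0.129). HSPG2 fell in ish2 (-0.76), with FBLN1 (-0.67) and the agrin gene AGRN (-0.58).

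Laminin receptors other than integrins, mainly the dystrophin complex, were called 14 higher and 14 lower of 28 in ish and 13 higher and 10 lower in ish2. These are 50% and 50% in ish, against 39.1% and 39.5% of all genes. In ish2 they are 46.4% and 35.7%, against 33.9% and 31.1%. In ish the sarcoglycans SGCA (log2 fold change 3.33) and SGCB (1.02) and the syntrophin SNTB1 (1.05) rose. In ish2 dystrophin itself, DMD (-1.48), dystroglycan, DAG1 (-1.05), and SDC2 (-1.26) fell, and CD44 rose (1.03). The median log2 fold changes of this list, -0.0028 in ish and -0.012 in ish2, were near 0, as was that of all tested genes in ish (-0.0078).

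Among other integrin ligands 14 of 41 tested genes rose (34.1%, against 39.1% of all genes) and 22 fell (53.7%, against 39.5%) in ish. In ish2 19 rose (46.3%, against 33.9%) and 14 fell (34.1%, against 31.1%). In ish the adhesion molecule L1CAM (log2 fold change -1.96), the surface protease ADAM9 (-1.49) and TGFB1 (-1.58) fell, and nephronectin, NPNT, rose (4.32). In ish2 tenascin C, TNC (1.27), LTBP2 (1.83), THBS2 (1.04) and ADAM12 (0.71) rose.

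**Figure D4:**
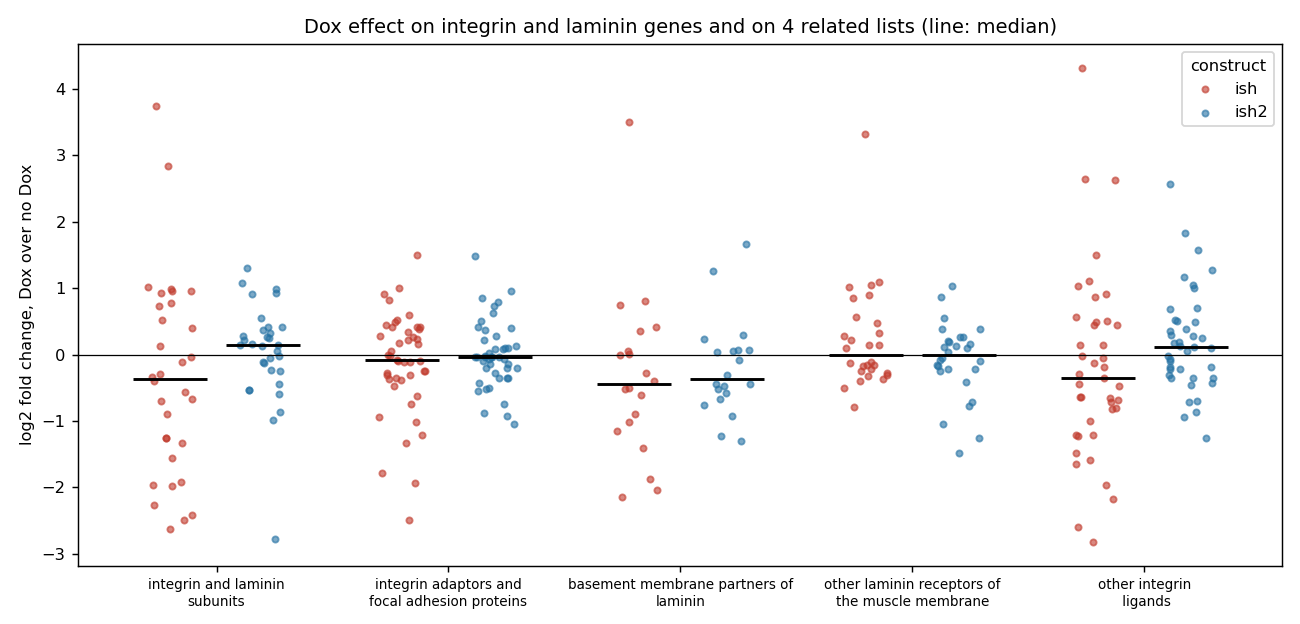
Log2 fold change of Dox over no Dox for each tested gene (points, spread sideways for view) of the integrin and laminin subunits and of the 4 lists of their partners, ish beside ish2, with a line at each median. The subunits have medians of -0.38 in ish and 0.15 in ish2, and the basement membrane partners have medians below 0 in both (-0.45 and -0.38).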

How the data were processed

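The authors deposited raw read counts per gene symbol for the 12 RD libraries, per the labels stranded mRNA libraries read as 75-base pairs. Tools named in the submitters' processing notes are STAR 2.7.3a, Subread 1.6.3, featureCounts and Trim Galore 0.6.4, with the GRCh38 build. Sources used here give neither the annotation nor the use of strand in counting. Columns were matched to samples by their names, which number the hairpins Sh1 and Sh2, and Sh1 was read as ish because the other construct is titled ish2. The 5 rows for reads not assigned to 1 gene (20.96% to 24.44% of each library, ambiguous reads 2.08% to 2.65%) were left out. Counts were filtered with filterByExpr by group (minimum count 10; 15206 genes kept, 11279 left out), TMM-scaled (factors 0.986 to 1.01) and fitted once as 4 group means with edgeR 4.0.16 in R 4.3.3 (limma 3.58.1; quasi-likelihood, robust), with Benjamini-Hochberg adjustment over all tested genes. The biological coefficient of variation was 2.44%, so small folds pass; genes were called at an adjusted p under 0.05. SE is the absolute log2 fold change over the square root of F, back-calculated from the test. Replicates differed beyond counting noise (chi-square per degree of freedom 1.33 to 4.05), which leaves no pair that looks like 1 library deposited again.

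The members and gene lists were chosen with earlier results of these data known. Library values are given for members called at 2-fold in either construct or in the difference, and for ITGB1, ITGAV, ITGA7, ITGA6, ITGA5, LAMA2, LAMB1 and LAMC1; for each list of partners, the 4 genes with the smallest p per construct are named. The results of 1 member and 1 partner gene that this rule takes are not reported here, though the counts include them. MYOG, PTPRC, PF4 and other markers were taken from the marker lists. Promoters are RefSeq's (GRCh38.p14). Protein sequences were not used here. Simulated data held few changed genes: 66, 68 and 63 were changed 1.25-fold, 1.5-fold and 2-fold in the ish contrast. Of these 75.8%, 92.6% and 88.9% were called, with 11 of 14795 unchanged genes called. In the ish2 contrast 73, 50 and 75 were changed. The shares called were 67.1%, 88% and 96%, with 8 of 14794 unchanged genes called, both over 14992 genes. In the real data 78.6% of genes were called in ish and 65% in ish2. The simulated rates therefore do not give the error rates of the real contrasts. Alternatives were DESeq2 size factors, DESeq2 1.42.0, no filter, a stricter filter (mean of 1 CPM), 1 construct alone, a replicate block and leaving out each library.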

Additional observations from a re-analysis of the deposited data

Results flagged for a closer look

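Each result here is a Dox effect that differed between the 2 constructs by the edgeR test of the difference itself (adjusted p under 0.05 over all genes), given as the log2 fold change in ish minus that in ish2. Among the laminins the difference was -3.17 for LAMB3, -2.56 for LAMC1, -2.09 for LAMA1, -1.74 for LAMB1, -1.05 for LAMA5 and -0.892 for LAMA2, all lower in ish. It was 0.9999 for LAMA4, just under 2-fold, and 0.643 for LAMC3. The LAMC3 call was lost without any 1 of 9 libraries (0.47 without ish2 Dox replicate 2).

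Among the integrin beta chains the difference was 5.61 for ITGB2, 3.98 for ITGB6 and 0.425 for ITGB4, and -3.27 for ITGB3, -1.4 for ITGB5 and -0.577 for ITGB1. ITGB2 is the member with the largest difference in size, at 0.240, 0.297 and 0.0639 CPM in ish2 Dox libraries, its lowest group. Those values came from 7, 8 and 2 reads, and the difference ran from 5.17 to 6.00 with each library left out in turn.

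Among the integrin alpha chains it was 1.47 for ITGA4, 0.807 for ITGAE and 0.736 for ITGA1, where the ish effect was the higher one. It was -2.87 for ITGAX, -1.59 for ITGA9, -1.54 for ITGAV, -1.51 for ITGA2B and -1.11 for ITGA5, each over 2-fold, and -0.825 for ITGA10, -0.767 for ITGA7, -0.455 for ITGA3 and -0.143 for ITGA6. For ITGAX the difference was -3.77 without ish Dox replicate 3. Since 72.6% of all tested genes also differed between the constructs, a difference is not particular to these genes. NT5E was 10.7-fold lower with Dox in ish but 1.59-fold lower in ish2, and the part of that in the differences was not tested. Groups of 3 are too small for a test of single outlying libraries.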

How the results depend on the processing

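Over the members' values, 2129 kept their direction and side of the threshold under the alternatives, 45 lost a call, 23 gained one and 23 changed sign. The sign changes came from leaving out 1 library and touched only values that were not called. Their ranges of log2 fold change were -0.080 to 0.0035 for ITGA3 in ish, -0.21 to 0.048 for ITGA2B, -0.22 to 0.099 for ITGAL and -0.14 to 0.18 for ITGB7 in ish2. For the difference between constructs they were -0.48 to 0.17 for ITGA2 and -0.030 to 0.061 for LAMB2. Between the uninduced lines they were -0.041 to 0.0019 for ITGA7, -0.0023 to 0.032 for ITGA9, -0.29 to 0.032 for ITGAL and -0.060 to 0.15 for LAMB3. Leaving out 1 library at a time, the members higher by 2-fold numbered 2 to 6 in ish, 2 to 4 in ish2 and 3 to 5 for the difference (3 as reported). Those lower by 2-fold in ish2 numbered 1 to 2, and 2 in DESeq2's Wald test. Without Dox, 2 to 5 members were lower in ish than in ish2 and 0 to 1 were higher by 2-fold. The cause was not tested beyond fewer samples. The call of LAMC3 for the difference (log2 0.64, adjusted p = 0.0479) was lost in DESeq2 (adjusted p = 0.123), without the filter and without each of 9 libraries (adjusted p up to 0.166). ITGAL, uncalled for the difference, was called without any 1 of 3 libraries.

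Replicate numbers recur in all 4 groups but did not pair the libraries: deviations of like-numbered libraries correlated at -0.0798 to 0.0381, and only 3 of the 12 correlated best with a library of like number. With the replicate block, 12 members rose and 15 fell in ish, and 14 rose and 10 fell in ish2, as without it. It likewise left 8 members higher and 18 lower for the difference. The fit of 1 construct alone could not be made for the comparisons across constructs. For per-length levels in the no-Dox groups, 56 of 64 moved by more than 1 SD with the longest transcript. The longest transcript is shorter than all exons in every member. Every level therefore had to rise, and the count depends on how small the SD was. Among the members reported here, depth limits ITGAX, ITGA2, ITGA10, ITGB7, LAMC3 and the untested members most. It also limits LAMB3 in ish Dox libraries and ITGB2 in ish2 Dox libraries.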

Other observations

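NPNT, the ligand of the integrin alpha8 beta1, had 291, 260.0 and 287 CPM in ish Dox libraries, against 14.3, 12.96 and 14.8 CPM in ish no-Dox libraries (log2 fold change 4.32, adjusted p = 1.14e-30), and its receptor chain ITGA8 had 0 reads in all ish libraries. In ish2 NPNT averaged 10.1 ± 0.610 CPM in ish2 Dox libraries and 11.6 ± 0.787 CPM in ish2 no-Dox libraries (log2 fold change -0.20, adjusted p = 0.0442). TGFB1, whose latent form is activated by ITGAV with ITGB6, averaged 27.7 ± 0.843 CPM in ish Dox libraries and 83.1 ± 1.46 CPM in ish no-Dox libraries, and thus fell where ITGB6 rose. TNC, a ligand of ITGA9, rose in both constructs, averaging 2196 ± 50.7 CPM in ish Dox libraries and 1208 ± 17.8 CPM in ish no-Dox libraries. In ish2 it averaged 3922 ± 90.5 CPM in ish2 Dox libraries and 1627 ± 22.3 CPM in ish2 no-Dox libraries, while ITGA9 fell in ish and rose in ish2. These ligands and receptor chains, known to bind or act on each other, were picked after their values were seen.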
